A study of Homo sapiens with 9 samples.

Results

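The comparison described here set 3 libraries of A549 cells with a stable short hairpin RNA against PRMT5 beside 3 libraries of A549 cells with a control hairpin against GFP, and covered every gene of the count table. These 6 libraries, chosen by their labels alone, were 6 of the 9 in the series. The other 3 came from cells with a hairpin against MEP50, the protein encoded by WDR77, and are used here only to show where the PRMT5 knockdown differed from the knockdown of its partner. A549 is an established human line of lung adenocarcinoma. All groups, the control included, were grown in RPMI with fetal bovine serum and kept under puromycin to hold the hairpin, and total RNA was depleted of ribosomal RNA before stranded libraries were made. The labels call the 3 libraries of a group biological replicates. They give 1 hairpin group per target, so loss of the target and effects of a hairpin or of a selected cell population cannot be told apart.

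PRMT5 transfers methyl groups to arginine residues and makes most of the symmetric dimethylarginine of the cell. It works in a complex with MEP50, and its substrates include tails of histones H2A, H3 and H4, Sm proteins of the spliceosome and several transcription factors. Marks on histone H4 and H3 placed by this complex are best known for their place at repressed promoters, though some have been tied to active genes. Methyl groups come from S-adenosylmethionine, the product of the methionine cycle. The study asked how the pair acts on the expression programme of invasion that TGF-beta drives in cancer cells.

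Between 25075508 and 29461432 reads fell on genes in the control libraries and between 25192565 and 31586128 in the PRMT5 knockdown libraries. Levels below are counts scaled to a common library size (CPM) with TMM factors and not divided by gene length, so they compare a gene between libraries and not genes with each other. Where a single level is given for a group it is the mean of its 3 libraries. Replicates of a group differed by 3.38 to 4.68 times the variance of counting alone. The first principal component of the 6 libraries held 71.7% of the variance and separated the groups, and the second held 8.1%. Keratins KRT8 and KRT18 dominated the epithelial markers, while 4 of 10 such markers (EPCAM, KRT19, CLDN4 and TSTD1) stayed below 1 CPM. CDKN2A, a cell cycle inhibitor gene that A549 is known to lack, had 0 reads. MTAP, its neighbour on the chromosome, had reads, with a mean of 5.94 CPM in the control, and the identity of the line was taken from the labels. Markers of blood cells summed to at most 0.2 CPM in any of the 6 libraries. Reads outside annotated genes made up 14.2 ± 0.453% of counted reads in the knockdown and 12.1 ± 0.296% in the control (SD, n = 3). The 2 groups did not overlap in this share, and a two-sided exact permutation test gave p = 0.1, the smallest that 3 against 3 libraries allow. The part of this difference in the results below was not tested.

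The target gene was lower in every knockdown library. PRMT5 (ENSG00000100462) was at 212, 209 and 205 CPM in the control libraries 1, 2 and 3 and at 70.1, 67.5 and 69.2 CPM in the knockdown libraries, a 3.03-fold fall (log2 fold change -1.60 ± 0.0348, SE). Its adjusted p was 1.98e-32 by the quasi-likelihood test of edgeR, which gives every adjusted p below unless another tool is named, with Benjamini-Hochberg adjustment over all genes tested. WDR77, the gene of the partner MEP50, was at 39.2, 39.6 and 39.3 CPM in the control and 43.2, 46.9 and 42.1 CPM in the knockdown (log2 fold change 0.16, edgeR adjusted p = 0.03). That small rise did not pass when any of 5 libraries was left out, with edgeR adjusted p from 0.0581 to 0.214 and log2 fold changes from 0.11 to 0.16, nor by DESeq2 (adjusted p = 0.0506).

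Knockdown of PRMT5 shifted the level of many genes by a little and of a few by much, in similar numbers up and down. Of 14582 genes with enough reads, 3809 rose (26.1%) and 3624 fell (24.9%) at an adjusted p below 0.05, and the median log2 fold change of all genes tested was 0.00. Levels are relative within a library, so a shift of all genes together would not show in these numbers. A change of at least 2-fold was reached by 513 of the risen genes (3.52% of genes tested) and 544 of the fallen ones (3.73%), and 5349 of the 7433 called genes (72.0%) changed by less than 1.5-fold. The 1st and 99th percentiles of the log2 fold change were -2.03 and 1.82.

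**Figure D1:**
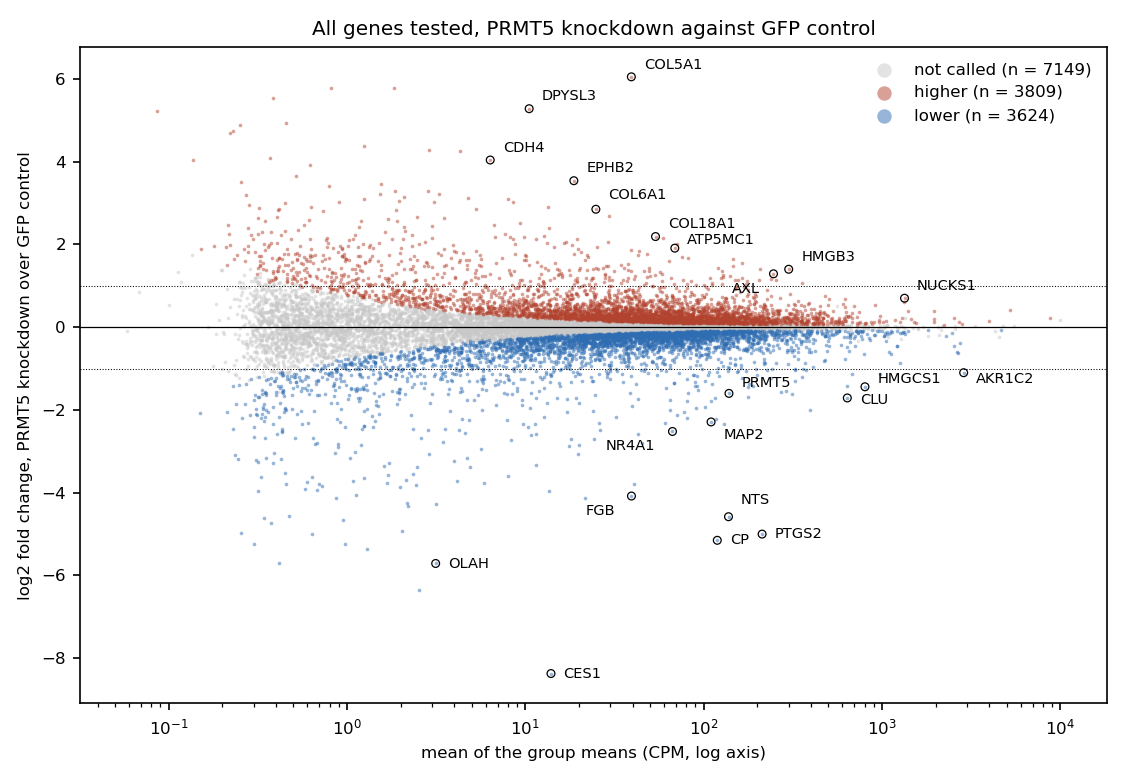
Log2 fold change of PRMT5 knockdown over GFP control (vertical axis) against the mean of both group means in CPM (horizontal log axis) for each of the 14582 genes tested. Red points were called higher (n = 3809), blue points lower (n = 3624) and grey points neither, dotted lines mark 2-fold, and circled genes are named in the text, from COL5A1 at 6.05 to CES1 at -8.37.

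The large falls weighed more on the transcript pool than the large rises. Genes at least 2-fold lower held 2.73% of gene reads in the control and 1.03% in the knockdown, and genes at least 2-fold higher went from 0.494% to 1.26%. The share of genes called grew with abundance, from 12.7% higher and 13.1% lower in the fifth of genes with the fewest reads to 37.7% and 31.4% in the fifth with the most. Changes of at least 2-fold went the other way, from 9.19% and 9.63% in the lowest class to 0.96% and 1.85% in the highest, where 28 genes rose and 54 fell that far. Among 919 long noncoding RNAs 5.22% were at least 2-fold higher and 8.05% at least 2-fold lower, against 3.42% and 3.54% of 12152 protein-coding genes. On each of the 23 chromosomes the median log2 fold change lay between -0.03 and 0.05.

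**Figure D2:**
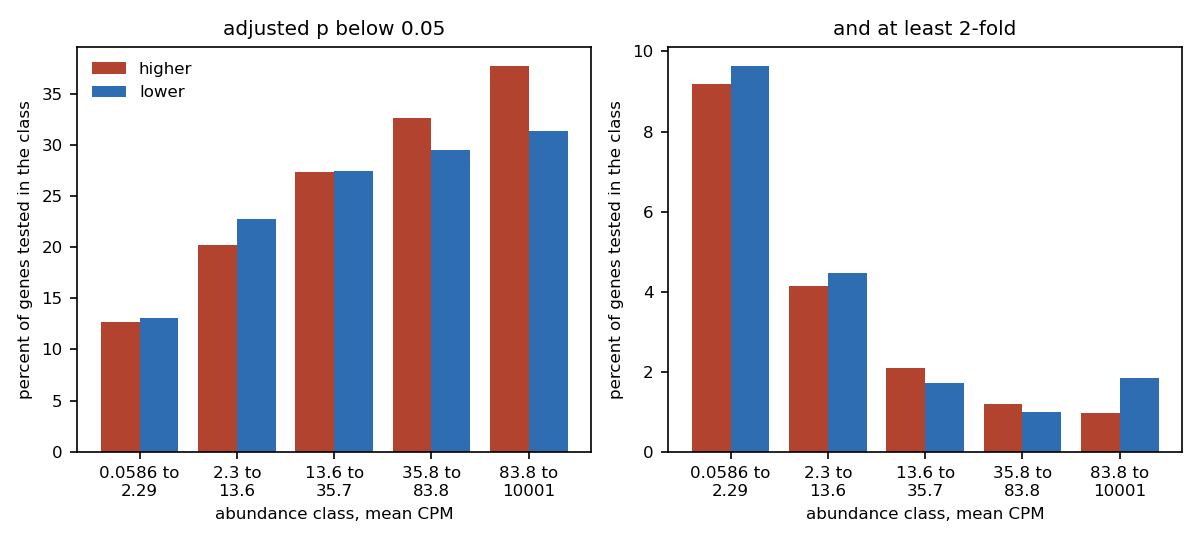
Share of genes tested that were called higher (red) or lower (blue) after PRMT5 knockdown in 5 classes of equal size by mean CPM (horizontal axis), at an adjusted p below 0.05 (left) and with a change of at least 2-fold as well (right). The share called grows to 37.7% higher and 31.4% lower in the most abundant class, while changes of at least 2-fold are most frequent, 9.19% and 9.63%, in the least abundant class.

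Promoters of 7 genes from the groups described next are shown because these genes belong to families or groups that the results turn on. Each line holds the 250 bases before a RefSeq transcription start on GRCh38.p14, 5′ to 3′ on the strand of the gene. RefSeq lists 2 promoters each for FGB and COL5A1, and the lines and positions given cover a single promoter of each. The genes FGA (chr4:154590743-154590992, minus strand), FGB (chr4:154562730-154562979, plus) and FGG (chr4:154612657-154612906, minus) encode the chains of fibrinogen and lie next to each other. PTGS2 (chr1:186680424-186680673, minus) encodes cyclooxygenase-2, FOS (chr14:75278578-75278827, plus) and NR4A3 (chr9:99821635-99821884, plus) are immediate early genes, and COL5A1 (chr9:134641553-134641802, plus) encodes a fibrillar collagen chain. Capitals mark exact matches on either strand. In the fibrinogen genes they mark the HNF1 core GTTAAT and the CCAAT box CCAAT, and in COL5A1 the GC box GGGCGG. In PTGS2, FOS and NR4A3 they mark the cAMP response element core TGACG, and in PTGS2 and FOS also the TATA box TATAAA. A match is a run of letters and not a measured site.
FGA: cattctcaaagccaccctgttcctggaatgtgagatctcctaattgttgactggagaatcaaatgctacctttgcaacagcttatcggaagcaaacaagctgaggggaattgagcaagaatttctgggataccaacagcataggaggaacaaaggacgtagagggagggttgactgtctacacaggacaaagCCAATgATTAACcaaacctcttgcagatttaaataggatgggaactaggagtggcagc
FGB: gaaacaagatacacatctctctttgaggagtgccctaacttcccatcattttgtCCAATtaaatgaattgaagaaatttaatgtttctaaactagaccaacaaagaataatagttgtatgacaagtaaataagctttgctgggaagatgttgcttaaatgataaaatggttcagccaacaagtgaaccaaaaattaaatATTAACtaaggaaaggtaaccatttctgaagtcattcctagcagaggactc
FGG: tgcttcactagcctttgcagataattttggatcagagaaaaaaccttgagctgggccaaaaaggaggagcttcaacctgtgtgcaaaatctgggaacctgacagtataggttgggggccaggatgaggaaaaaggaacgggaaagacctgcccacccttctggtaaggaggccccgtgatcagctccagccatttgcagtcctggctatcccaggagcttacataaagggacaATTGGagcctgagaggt
PTGS2: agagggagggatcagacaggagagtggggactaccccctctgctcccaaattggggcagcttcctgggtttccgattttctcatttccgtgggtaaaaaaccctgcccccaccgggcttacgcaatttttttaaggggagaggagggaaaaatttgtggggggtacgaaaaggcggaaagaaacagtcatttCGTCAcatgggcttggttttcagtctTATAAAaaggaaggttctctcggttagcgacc
FOS: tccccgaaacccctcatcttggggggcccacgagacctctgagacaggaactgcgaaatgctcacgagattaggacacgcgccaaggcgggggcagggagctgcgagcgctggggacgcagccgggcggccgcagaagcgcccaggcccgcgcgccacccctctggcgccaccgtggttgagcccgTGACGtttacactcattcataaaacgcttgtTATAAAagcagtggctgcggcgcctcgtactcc
NR4A3: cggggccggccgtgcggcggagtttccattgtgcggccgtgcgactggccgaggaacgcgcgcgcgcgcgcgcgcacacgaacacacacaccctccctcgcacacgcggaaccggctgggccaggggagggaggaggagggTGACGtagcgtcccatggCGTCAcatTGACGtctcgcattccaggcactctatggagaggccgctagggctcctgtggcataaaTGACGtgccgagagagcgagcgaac
COL5A1: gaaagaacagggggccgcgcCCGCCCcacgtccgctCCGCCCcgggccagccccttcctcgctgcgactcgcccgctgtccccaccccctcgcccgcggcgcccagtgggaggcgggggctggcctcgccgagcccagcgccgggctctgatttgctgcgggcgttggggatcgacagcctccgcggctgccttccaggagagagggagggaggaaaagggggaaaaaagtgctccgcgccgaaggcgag

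FGA and FGB each held an HNF1 core at nearly the same place, with its first base 52 and 51 bases before the start, and FGG held none in this window. In the 300-base window that also holds the 50 bases after the start, the FGB promoter shown had no CpG, FGA had 2 and FGG had 4. The median was 25 over the promoters of genes tested. NR4A3 held the cAMP response element core 4 times, 109, 91, 83 and 25 bases before the start, FOS held it once at 64 bases and PTGS2 once at 58 bases. The COL5A1 promoter shown held 2 GC boxes, 230 and 214 bases before its start.

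Genes of secreted plasma proteins, which are made mainly by the liver and by some lung adenocarcinoma cells, were lower after PRMT5 knockdown. Of 21 tested members of this list 16 fell (76.2%, against 24.9% of all genes tested) and 1 rose (4.76%, against 26.1%). By at least 2-fold 10 of them fell, as did 3.73% of all genes tested. The median log2 fold change was -0.95 against 0.00 over all genes. FGB fell from 76.1, 73.7 and 73.6 CPM in the control libraries to 4.18, 4.19 and 4.76 CPM in the knockdown (log2 fold change -4.08 ± 0.0805, edgeR adjusted p = 8.01e-34). FGA fell alongside from 76.6, 75.4 and 74.6 to 5.25, 6.23 and 4.95 CPM (log2 fold change -3.78 ± 0.0781). The third chain gene, FGG, was sparse at 3.79, 4.75 and 4.53 CPM and fell to 0.158, 0.258 and 0.663 CPM, a count ratio of 0.0855 (33 against 361 reads, 95% counting interval 0.0579 to 0.122). No knockdown library came near a control library in any fibrinogen gene. Groups without overlap were a condition for naming FGA and FGB, and 95.5% of all called genes had such groups. FGL1, a fibrinogen-like secreted protein and ligand of the T cell receptor LAG3, fell from 70.5, 74.0 and 75.4 to 13.1, 10.8 and 12.8 CPM (log2 fold change -2.58). Ceruloplasmin (CP), the copper-carrying ferroxidase of plasma, had the widest drop of the list, from 224, 235 and 237 to 7.73, 6.03 and 6.0 CPM (log2 fold change -5.15 ± 0.0605, edgeR adjusted p = 1.81e-41). In bulk RNA, fewer cells that express a gene and less of its RNA per cell cannot be told apart.

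Complement genes were lower at several levels of the cascade. C3, the protein on which all complement routes meet, fell from 57.7, 50.8 and 51.1 to 11.6, 12.0 and 11.4 CPM (log2 fold change -2.18). The membrane regulators CD55 and CD46 fell with log2 fold changes of -1.72 and -0.95. C5AR1, the receptor for the C5a fragment, was among the 15 largest falls, from 20.7, 20.6 and 21.7 to 2.45, 1.68 and 2.18 CPM (log2 fold change -3.33, edgeR adjusted p = 2.04e-24). C5 (-0.67) and the protease gene C1S (-0.48) fell by less, and C1R, the partner protease of C1S, was the 1 list member that rose (0.99). Clusterin (CLU), a secreted chaperone that also binds terminal complement, was one of the most abundant genes to fall, from 966, 965 and 1005.4 to 305, 285 and 309 CPM.

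Genes of consecutive steps of prostaglandin synthesis fell. PLA2G4A, the phospholipase that frees arachidonic acid, fell from 122, 128 and 125 to 31.8, 30.9 and 27.5 CPM (log2 fold change -2.06 ± 0.0505, edgeR adjusted p = 9.07e-31). PTGS2, which turns arachidonic acid into prostaglandin H2, fell from 409, 412 and 416 to 14, 11.7 and 13.2 CPM (log2 fold change -5.0 ± 0.0706, edgeR adjusted p = 4.02e-18). The control libraries of both genes lay within a few percent of each other and far above the knockdown libraries. HPGD, the dehydrogenase that inactivates prostaglandins, moved the other way, from 6.23, 5.77 and 7.35 to 26.9, 27.2 and 25.5 CPM (log2 fold change 2.04). The prostaglandin E2 receptor PTGER4 rose as well, with a log2 fold change of 1.40. In the eicosanoid list as a whole 10 of 19 tested members rose and 5 fell, with a median of 0.12. The shares were 52.6% and 26.3%, against 26.1% and 24.9% of all genes tested.

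Immediate early genes, which respond within minutes to growth factors and stress, moved in both directions. All 3 genes of the NR4A orphan nuclear receptors fell. NR4A1 went from 114, 113 and 115 to 20.7, 20.8 and 18.2 CPM (log2 fold change -2.52 ± 0.0526, edgeR adjusted p = 5.45e-33), NR4A2 from 19, 21.2 and 19.2 to 3.67, 2.97 and 3.31 CPM, and NR4A3 from 18.0, 20.4 and 18.1 to 3.27, 3.65 and 4.17 CPM. Among the AP-1 genes, FOS fell from 38.3, 40.2 and 41.0 to 17.6, 18.9 and 19 CPM. Its partner gene JUN rose from 21.3, 24.0 and 23.7 to 51.1, 53.2 and 53.4 CPM, and FOSL2 from 78.0, 79.9 and 74.7 to 177, 183 and 179 CPM. FOSL1 rose (0.70), whereas JUNB (-0.19) and JUND (-0.47) fell. Of the KLF factors KLF2 (1.41), KLF6 (0.88) and KLF10 (0.56) rose and KLF4 fell (-0.30). The library values of FOS, JUN and FOSL2 did not overlap between groups, which held for 95.5% of all called genes. These genes were chosen after their values were seen.

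Feedback genes of the MAPK cascade, held in the same list as the immediate early genes, moved in both directions. The phosphatase gene DUSP4 fell from 230.4, 238 and 231 to 117, 110.5 and 109.7 CPM, and the EGFR inhibitor gene ERRFI1 from 443, 428 and 439 to 217, 215 and 214 CPM. PHLDA1, an early gene of growth factor signalling, fell from 256, 263 and 253 to 93.3, 99.6 and 92.2 CPM. The ETS factor ETV4 fell (-0.91) while its relative ETV5 rose (0.34), and the feedback inhibitor SPRY2 rose (1.09). Of the 42 tested genes of the joint list 11 rose (26.2%, against 26.1% of all genes tested) and 16 fell (38.1%, against 24.9%). The median log2 fold change of the list was -0.09. MYC was at 95.3, 95 and 101.2 CPM in the control and 100.4, 100.2 and 102.5 CPM in the knockdown and did not pass (log2 fold change 0.06, edgeR adjusted p = 0.24).

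Collagen chain genes rose together. Of 20 tested, 15 rose (75.0%, against 26.1% of all genes tested) and 1 fell (5.0%, against 24.9%), with a median log2 fold change of 0.75. By at least 2-fold 9 of them rose, as did 3.52% of all genes tested. COL5A1, a chain of the fibril-nucleating type V collagen, had the largest rise of all genes above 5 CPM, from 1.40, 0.978 and 1.16 to 76.9, 78.8 and 76.8 CPM (log2 fold change 6.05 ± 0.0843, edgeR adjusted p = 6.51e-39). COL5A2, which pairs with it, was already at 133 CPM in the control and rose to 152 CPM (log2 fold change 0.19). The beaded-filament chains COL6A1 and COL6A2 lie side by side in the genome and rose together. COL6A1 went from 6.11, 6.07 and 6.01 to 41.5, 42.9 and 46.6 CPM (log2 fold change 2.85) and COL6A2 from 7.98, 8.73 and 8.55 to 29.6, 31.4 and 32.2 CPM (log2 fold change 1.88). COL18A1, whose C-terminal fragment is endostatin, rose from 18.8, 20.3 and 18.7 to 88.6, 87.1 and 88.9 CPM, and COL12A1, a chain that sits on fibrils, from 40.2, 38.3 and 38.9 to 117, 124 and 131 CPM. The 1 chain that fell, COL9A3, was at 0.492 CPM in the control and 0.148 CPM in the knockdown.

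Genes that assemble and cross-link matrix rose with the collagens. LOXL2, an oxidase that cross-links collagen and elastin, rose from 34.8, 35.5 and 37.5 to 115, 117 and 117 CPM (log2 fold change 1.69 ± 0.0433, edgeR adjusted p = 3.71e-30). PLOD2, which hydroxylates lysines in collagen telopeptides, rose with a log2 fold change of 1.14, whereas PLOD1 fell (-0.25). Fibronectin (FN1) rose from 7.46 to 19.5 CPM and fibulin-3 (EFEMP1) from 1.58 to 6.32 CPM. HAS3, a synthase of hyaluronan, rose from 8.78, 7.28 and 7.75 to 50.6, 50.9 and 51.6 CPM (log2 fold change 2.69), and the hyaluronan receptor CD44, present in abundance, from 479, 484 and 484 to 768, 765 and 766 CPM. SPARC, which binds collagen outside the cell, was counted 3 times in the control and 40 times in the knockdown, a ratio of 12.5 (95% counting interval 3.97 to 63.0). Over the matrix assembly list 13 of 24 tested genes rose and 3 fell (median 0.20). The shares were 54.2% and 12.5%, against 26.1% and 24.9% of all genes tested.

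Markers of fibroblasts, cells that also make matrix, were read beside these genes. Of 8 such markers DCN, FAP and THY1 had 0 reads in the 6 libraries, and the 8 together summed to between 11.2 and 13.2 CPM in control libraries and between 11 and 11.7 in knockdown libraries. Within that sum COL1A1 rose from between 6.39 and 7.72 to between 10.1 and 10.8 CPM. Lumican (LUM), a collagen-binding proteoglycan, fell from 5.71, 5.36 and 4.46 to 0.868, 0.387 and 0.631 CPM. Of the endothelial markers CDH5, VWF, KDR and TEK stayed at or below 0.236 CPM, and ESAM, a junction protein of endothelium, rose from 6.15, 6.84 and 6.16 to 17.2, 18.5 and 18.3 CPM.

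Genes of cell junctions and keratins moved both ways. CDH4, the retinal cadherin, rose from 0.678, 0.843 and 0.652 to 11.1, 12.9 and 12.1 CPM (log2 fold change 4.04), and N-cadherin (CDH2) rose from 107 to 162 CPM (0.60). CDH17, a cadherin of intestine and liver, fell from 22.1, 22.7 and 25 to 13.2, 11.5 and 12.5 CPM (log2 fold change -0.91, edgeR adjusted p = 7.17e-14). Of 21 tested genes of the cadherin superfamily 10 rose and 9 fell (47.6% and 42.9%, against 26.1% and 24.9% of all genes tested). CLDN2, a claudin that makes tight junctions leaky to cations, rose from 1.88, 1.31 and 1.88 to 14.5, 15.8 and 12.7 CPM. KRT8 and KRT18, the keratin pair of simple epithelia, were among the most abundant genes to fall, KRT8 from 3141.8, 3293.6 and 3232.7 to 2113.9, 2067.4 and 2079.4 CPM. Both have many processed pseudogenes that can share reads with them. The desmosomal plaque genes PKP2 (1.20) and PKP3 (0.66) and the epithelial keratin KRT80 (0.99) rose.

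Actin-binding genes rose more often than they fell. Of 38 tested, 20 rose (52.6%, against 26.1% of all genes tested) and 9 fell (23.7%, against 24.9%), with a median of 0.13. Tropomyosin 1 (TPM1), which coats actin filaments, rose from 111, 116 and 115 to 302, 299 and 302 CPM (log2 fold change 1.40 ± 0.0329, edgeR adjusted p = 2.13e-31). CDC42EP3, an effector of the CDC42 GTPase, rose from 11, 11.9 and 10.9 to 45.6, 50.2 and 45.3 CPM. The bundling protein PLS3 rose from 388.2, 389.6 and 381.6 to 640.0, 601.1 and 616.9 CPM. PDLIM5, a PDZ and LIM protein at stress fibres, went against them from 919, 934 and 911 to 355, 349 and 333 CPM (log2 fold change -1.42).

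Axon guidance genes steer neurites in development and act on cell motility in carcinomas. Of 47 tested, 25 were higher (53.2%, against 26.1% of all genes tested) and 11 lower (23.4%, against 24.9%), with a median of 0.21. EPHB2, an ephrin receptor, rose from 2.47, 2.93 and 3.44 to 36.2, 32.3 and 35.1 CPM (log2 fold change 3.54 ± 0.0965, edgeR adjusted p = 3.20e-29). Its ligand gene EFNB2 rose from 16.5 to 39.7 CPM. Among the semaphorins, SEMA3E rose from 2.51, 4.01 and 2.83 to 23.9, 24.2 and 23.2 CPM, while SEMA3A fell from 21.1 to 10.3 CPM. Of the semaphorin receptors, neuropilin 2 (NRP2) rose from 2.67, 3.34 and 1.99 to 11.9, 11.6 and 14.8 CPM, plexin C1 (PLXNC1) went from 16 to 141 reads, a count ratio of 8.24 (95% counting interval 4.90 to 14.8), and plexin D1 (PLXND1) fell (-0.60). DPYSL3, a cytoskeletal mediator of semaphorin signals, was at 0.678, 0.202 and 0.724 CPM in the control and 19.3, 20.1 and 22.1 CPM in the knockdown. The ligand SLIT3 rose (1.42) and its receptor ROBO1 fell slightly (-0.10).

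Other genes best known from neurons moved both ways. Neurotensin (NTS), a secreted peptide of gut and brain, fell from 259, 272 and 263 to 13.3, 10.4 and 9.78 CPM (log2 fold change -4.58 ± 0.0581, edgeR adjusted p = 2.54e-37). MAP2, a microtubule protein of dendrites, fell from 188, 175 and 186 to 38.7, 35.7 and 38.1 CPM, and the adhesion molecule gene CNTN1 from 411, 403 and 412 to 148, 133 and 133 CPM. SCG5, a chaperone of prohormone processing, fell from 3.35, 3.00 and 3.08 to 0.237, 0.226 and 0.221 CPM (log2 fold change -3.76). Of 30 tested neuronal genes 12 rose and 11 fell (40.0% and 36.7%, against 26.1% and 24.9% of all genes tested). By at least 2-fold 8 went each way, and the median was -0.02. Among the rises, NAV2, a navigator gene, went from 0.639, 0.236 and 0.398 to 3.87, 2.97 and 3.69 CPM, and neuronal tubulin TUBB3 from 0.647 to 1.61 CPM. RBFOX3, the nuclear marker of mature neurons, stayed at or below 0.145 CPM in the 6 libraries.

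Other genes with the largest changes belonged to none of these groups. S100P, a calcium-binding protein of many carcinomas, fell from 42.7, 42.9 and 37.5 to 2.52, 2.68 and 1.89 CPM (log2 fold change -4.12 ± 0.111, edgeR adjusted p = 2.56e-29). TM4SF4, a tetraspan membrane protein of liver and gut, fell from 24, 26.7 and 25.7 to 1.97, 1.65 and 1.36 CPM, and SCARA5, a ferritin receptor, from 9.34, 11.7 and 11.5 to 0.552, 0.774 and 1.01 CPM. TCIM fell from 33.7, 37.5 and 33.6 to 5.25, 4.65 and 4.76 CPM. These 4 genes were named among the largest falls whose groups did not overlap, so the gap between their groups is part of that choice.

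Upward, VGF, a secreted neuropeptide precursor, rose from 2.91, 2.66 and 2.83 to 15.8, 16.7 and 15.4 CPM (log2 fold change 2.51 ± 0.137, edgeR adjusted p = 5.29e-19). CITED4, a CBP-binding coactivator, rose from 3.75, 4.42 and 4.93 to 23.9, 24.1 and 20.8 CPM, and GALNT18, of the mucin-type glycosyltransferase family, from 1.60, 1.75 and 2.83 to 10.7, 12 and 11.3 CPM. C14orf132 rose from 1.44, 1.01 and 1.41 to 7.97, 10.0 and 9.78 CPM. Among abundant genes MYOF, a ferlin of membrane repair, rose from 230.5, 232.1 and 233.4 to 471.6, 481.2 and 500.0 CPM, and annexin A1 (ANXA1), a phospholipid-binding mediator of inflammation, fell from 1666.5, 1616.8 and 1643.6 to 902, 901 and 884 CPM.

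**Figure D3:**
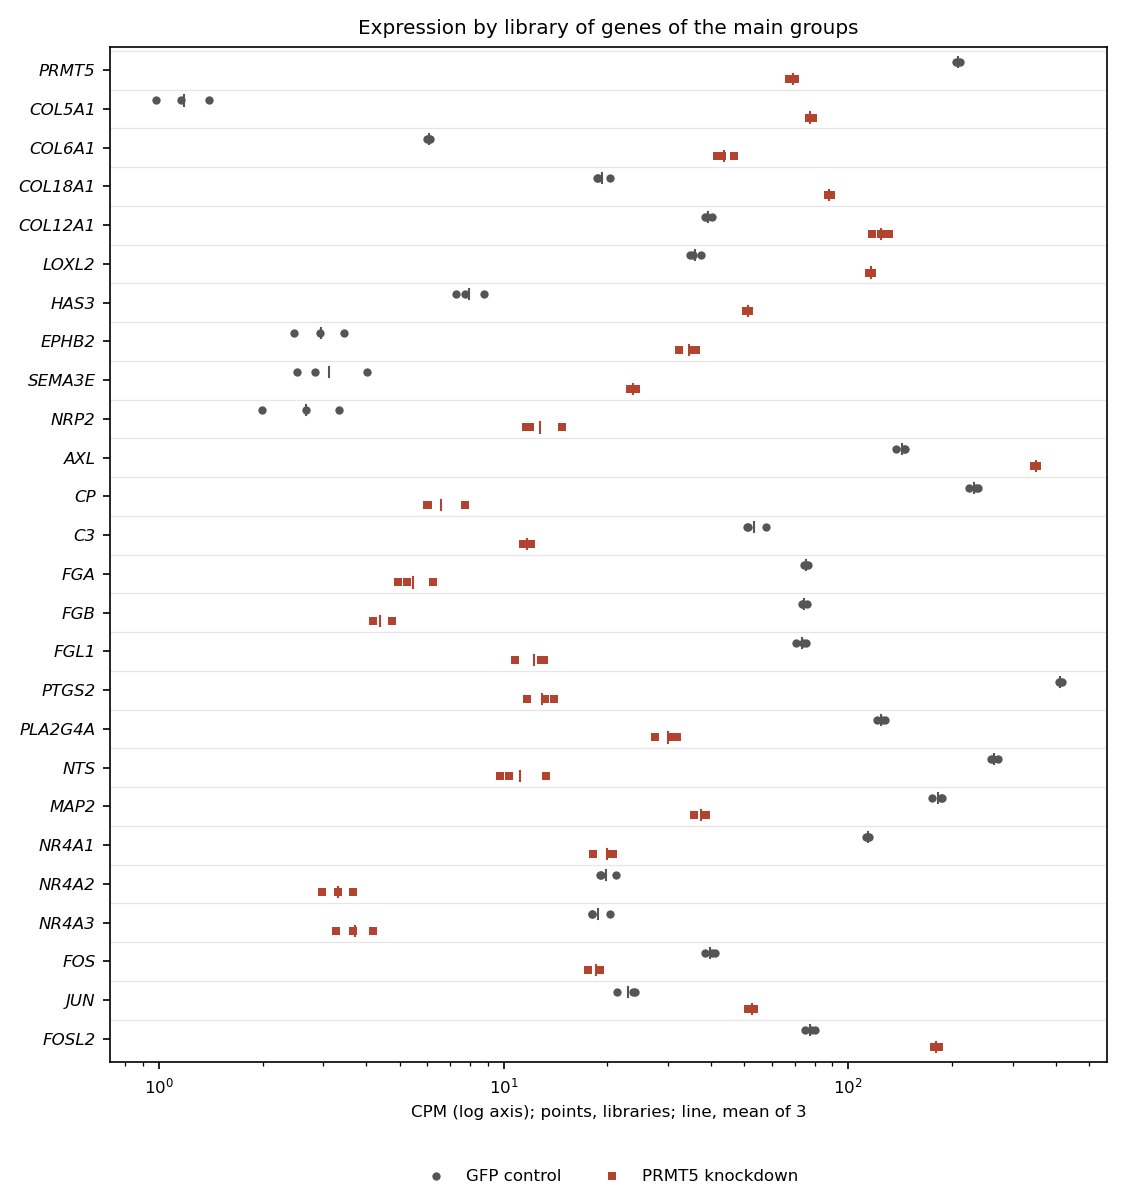
CPM (horizontal log axis) of 26 genes in each control library (grey circles) and each PRMT5 knockdown library (red squares), with a line at the mean of 3. PRMT5 stands first, the matrix and guidance genes that rose follow, and the plasma protein, prostaglandin, NTS, MAP2 and NR4A genes that fell stand below, with FOS, JUN and FOSL2 last. The groups do not overlap in any gene shown, which was a condition for naming genes by size of change or by list. It holds for 95.5% of all called genes. COL5A1 and CP lie widest apart upward and downward.

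Growth factor receptors and ligands were redistributed. The receptor kinase AXL rose from 145, 146 and 137 to 353, 351 and 346 CPM (log2 fold change 1.29 ± 0.0297, edgeR adjusted p = 1.19e-31), and the receptor kinase family member ROR1 from 4.51, 4.82 and 4.42 to 15.7, 15.5 and 14.9 CPM. EGFR rose from 98.5, 99.1 and 104 to 159.5, 164.5 and 165.8 CPM, and its ligand TGFA from 1.84, 1.58 and 1.85 to 6.75, 5.68 and 6.28 CPM. Relatives of EGFR fell, ERBB3 (-0.84) and ERBB2 (-0.27). HGF, the ligand of MET, fell from 129 to 18 reads, a ratio of 0.130 (95% counting interval 0.0750 to 0.215), while MET rose from 265 to 387 CPM. The insulin receptor INSR (-1.21), the lymphatic growth factor VEGFC (-1.32) and FGFR3 (-1.20) also fell. In all 17 of 38 tested genes rose and 11 fell (44.7% and 28.9%, against 26.1% and 24.9% of all genes tested).

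Among Wnt genes, members called in the test included secreted antagonists, receptors and targets, and the ligand WNT5A did not pass (-0.21, edgeR adjusted p = 0.268). SFRP1, a secreted Wnt antagonist, rose from 3.75, 4.48 and 5.32 to 22.1, 20.5 and 20.4 CPM (log2 fold change 2.21), while DKK1, an antagonist of the LRP co-receptors, fell from 925, 921 and 956 to 443, 415 and 410.4 CPM (log2 fold change -1.14). The receptor FZD6 rose (1.43) and FZD7 fell (-1.29), and the nuclear effector LEF1 (-1.29) and the pathway target AXIN2 (-0.56) fell. For the Wnt list 8 of 37 tested genes rose (21.6%, against 26.1% of all genes tested) and 12 fell (32.4%, against 24.9%). In the Notch pathway the ligand JAG1 rose from 148, 148 and 145 to 325, 334 and 336 CPM and JAG2 from 3.99, 3.88 and 4.02 to 6.98, 8.39 and 6.91 CPM. NOTCH3 fell from 163, 160.3 and 159 to 77.6, 76.9 and 72.5 CPM, whereas NOTCH1 (0.23) and NOTCH2 (0.21) rose slightly. The target HES1 rose by 0.21 on the log2 scale. Of 24 tested Notch genes 11 rose (45.8%, against 26.1% of all genes tested) and 6 fell. The share that fell was close to the 24.9% of all genes tested.

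A list of the YAP and TEAD transcription factors, which respond to cell shape and density, with their regulators and targets, had 18 of 30 members higher and 8 lower, 9 of them higher by at least 2-fold (median 0.34). ANKRD1 rose from 64.0, 67.1 and 69.3 to 134, 131 and 139.8 CPM and CCN2, a matricellular protein, from 49.3, 54.6 and 52.5 to 112, 111 and 102 CPM (log2 fold changes 1.02 and 1.05). FJX1, a four-jointed box protein, rose from 10.1, 10.6 and 10.7 to 38.7, 43.7 and 38.3 CPM, and TGFB2, a TGF-beta ligand, from 22.9, 21.4 and 22.1 to 72.5, 74.1 and 77.2 CPM. Of the factors in this count, YAP1 fell from 149, 157 and 144 to 115, 115 and 106 CPM, TEAD1 (-0.42) and TEAD3 (-0.66) fell, and the YAP relative WWTR1 rose (0.76). The upstream regulators NF2 (0.62) and LATS1 (0.27) rose and LATS2 fell (-0.56). The list holds AXL and TGFB2, which other lists hold as well. Its shares were 60.0% higher and 26.7% lower, against 26.1% and 24.9% of all genes tested.

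Several chemokines rose from low levels. CXCL2, which draws neutrophils, went from 0.998, 0.708 and 1.09 to 5.37, 5.52 and 4.35 CPM (log2 fold change 2.45), CCL2, which draws monocytes, from 0.918, 0.944 and 1.05 to 5.60, 6.06 and 6.50 CPM, and the pentraxin PTX3 from 0.718, 0.843 and 0.326 to 6.63, 6.39 and 4.86 CPM. CCL20 moved down, from 73 to 12 reads (ratio 0.154, 95% counting interval 0.0760 to 0.285). IL18, a cytokine stored in epithelia, was the abundant member and fell from 155, 159 and 167 to 61.2, 61.9 and 61.6 CPM (log2 fold change -1.38). The receptor genes IL4R (1.11) and IL1R1 (0.51) rose and IL6R fell (-0.62). Of 35 tested chemokine and cytokine genes 17 rose and 9 fell (median 0.30). The shares were 48.6% and 25.7%, against 26.1% and 24.9% of all genes tested.

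Genes of lipid and xenobiotic metabolism were more often lower than higher. For fatty acid and lipid metabolism 27 of 48 tested genes fell and 12 rose (median -0.20). Falls included ACSS2, which makes acetyl-CoA from acetate, from 41.8, 42.7 and 41.5 to 18.3, 17.7 and 16.9 CPM, the acyl-CoA synthetases ACSL1 (-1.0) and ACSL4 (-0.87), and fatty acid synthase FASN (-0.33). OLAH, a thioesterase that ends fatty acid chains, fell from 511 to 10 reads (ratio 0.0183, 95% counting interval 0.00872 to 0.0339). HMGCS1, which makes HMG-CoA for the mevalonate pathway, fell from 1184.8, 1165.7 and 1166.3 to 447, 433 and 419 CPM. ABCA1, which exports cholesterol, rose from 7.18, 6.07 and 8.55 to 31.5, 30.9 and 32.7 CPM (log2 fold change 2.13), and the surfactant lipid transporter ABCA3 from 36.2, 37.5 and 36.0 to 80.4, 79.5 and 79.1 CPM. LPCAT1, an acyltransferase of surfactant lipid, rose from 75.8, 77.3 and 74.2 to 178, 170.4 and 173 CPM.

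Among 54 tested genes of drug and aldehyde metabolism 29 fell and 10 rose (median -0.19). The shares were 53.7% and 18.5%, against 24.9% and 26.1% of all genes tested. CES1, a carboxylesterase that cleaves ester drugs, fell from 28.4, 28.3 and 26.8 to 0.0789, 0.129 and 0.0316 CPM, or from 2290 to 7 reads, a ratio of 0.00286 (95% counting interval 0.00115 to 0.00590). This was the largest fall among genes above 5 CPM. The aldo-keto reductases of the AKR1C cluster fell together, AKR1C1 from 468, 449 and 478 to 188, 189 and 184 CPM, AKR1C2 from 3888.9, 3822.2 and 4038.6 to 1812.8, 1823.6 and 1837.7 CPM, and AKR1C4 from 10.0, 9.64 and 10.3 to 1.5, 1.16 and 1.23 CPM. AKR1B10, a reductase of retinal and lipid aldehydes, rose from 1046.9, 1039.7 and 1054.8 to 1652.4, 1584.1 and 1604.3 CPM. The AKR1C genes are similar in sequence, so reads may be misplaced or lost among them and single values are uncertain. CYP26B1, which degrades retinoic acid, rose (1.31), and HPD, a dioxygenase of tyrosine breakdown, fell from 34.5, 33.5 and 37.5 to 5.05, 4.23 and 3.47 CPM.

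Lysosome and autophagy genes fell by small amounts. Of 49 tested, 30 fell (61.2%, against 24.9% of all genes tested) and 7 rose (14.3%, against 26.1%). The median was -0.17, and 1 member was at least 2-fold lower. That member, GABARAPL1, a protein of autophagosome membranes, fell from 62.2, 64.1 and 60.7 to 17.3, 15.2 and 17.4 CPM (log2 fold change -1.91 ± 0.0710, edgeR adjusted p = 1.37e-24). Cathepsins S (CTSS, -0.91), L (CTSL, -0.54) and D (CTSD, -0.48) fell and cathepsin B (CTSB) rose (0.19), as did TFEB (0.63) and TFE3 (0.32), factors that switch on lysosomal genes. Iron genes fell in 12 of 23 cases (52.2%, against 24.9% of all genes tested) and rose in 5 (21.7%, against 26.1%). Besides CP, heme oxygenase HMOX1 fell from 18.4, 18.8 and 20.2 to 12.5, 10.1 and 11.8 CPM, and the duodenal ferric reductase CYBRD1 rose from 13.6, 13 and 13.6 to 38.2, 36.3 and 34.9 CPM.

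Carriers and channels changed in both directions. SLC2A3, a glucose transporter, fell from 437, 419.9 and 435 to 158, 142 and 148 CPM, and SLC7A2, a carrier of cationic amino acids, from 315, 326 and 329.7 to 165, 161 and 154 CPM. Over the carrier list 11 of 32 tested genes rose and 12 fell (34.4% and 37.5%, against 26.1% and 24.9% of all genes tested). The voltage-gated potassium channel KCNH1 rose from 23 to 482 reads (ratio 19.6, 95% counting interval 12.9 to 31.2). The calcium channel subunit CACNB2 fell from 344 to 18 reads (ratio 0.0489, 95% counting interval 0.0287 to 0.0785). KCNJ2, an inward rectifier, fell from 5.23, 4.85 and 4.46 to 0.750, 0.935 and 0.884 CPM, and SCNN1A, a subunit of the epithelial sodium channel, from 8.94, 10.8 and 9.92 to 3.98, 3.65 and 3.6 CPM. Of 29 channel genes 12 rose and 7 fell (41.4% and 24.1%, against 26.1% and 24.9%).

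Of 58 tested genes of G1/S control and DNA replication 23 rose (39.7%, against 26.1% of all genes tested) and 16 fell (27.6%, against 24.9%). The CDK inhibitor p27 (CDKN1B) fell from 95.7, 98.1 and 102 to 35.3, 39.9 and 39.4 CPM (log2 fold change -1.36 ± 0.0473, edgeR adjusted p = 1.28e-25). The D-type cyclins fell too, CCND1 from 619.8, 605 and 607 to 348, 356 and 354 CPM and CCND3 from 181, 180.1 and 181 to 99.3, 97.4 and 99.7 CPM, while their kinase CDK4 rose (0.47). The sliding clamp PCNA fell by 0.50 on the log2 scale, and MCM2 to MCM5 rose by between 0.09 and 0.17. In the list of BCL2 family and death receptor genes 9 of 32 tested rose (28.1%, against 26.1% of all genes tested) and 11 fell (34.4%, against 24.9%). The inhibitor BCL2A1 went from 5 to 318 reads (ratio 59.5, 95% counting interval 25.2 to 184), MCL1 rose (0.39), and CASP9, the initiator caspase of the mitochondrial route, fell from 19.6, 19.8 and 18.1 to 8.44, 8.10 and 9.09 CPM.

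Of 27 tested genes of the methionine cycle and polyamines 8 rose and 10 fell (median 0.00). These are 29.6% and 37.0%, against 26.1% and 24.9% of all genes tested. CTH, which makes cysteine from cystathionine, fell from 19, 19.8 and 16.7 to 3.39, 3.16 and 2.59 CPM (log2 fold change -2.61). ADI1, an enzyme of methionine salvage, fell from 50, 51.2 and 49.5 to 33.0, 31.5 and 30.7 CPM. MTAP, the first salvage enzyme, was at 6.31, 5.53 and 5.98 CPM in the control and 5.60, 5.45 and 6.37 CPM in the knockdown (edgeR adjusted p = 0.888). Among 21 tested genes whose proteins are reported PRMT5 substrates 8 rose and 5 fell (38.1% and 23.8%, against 26.1% and 24.9%). Their median was 0.06, and EGFR and the nucleolar methyltransferase FBL were among the risen ones. KLF4, a factor that PRMT5 methylates, was at 11.9, 14.4 and 14.1 CPM against 11.5, 11.9 and 9.56 CPM, so the nearest libraries of the groups were alike at 11.9 CPM. It was called lower (-0.30, edgeR adjusted p = 0.00969), but not without PRMT5 knockdown replicate 3 (-0.21, adjusted p = 0.0962) or control replicate 2 (-0.25, adjusted p = 0.0616).

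Of 32 tested transcription factors of foregut and lung 9 rose (28.1%, against 26.1% of all genes tested) and 12 fell (37.5%, against 24.9%). ELF3, an ETS factor of epithelia, fell from 55.5, 60.7 and 58.4 to 20.1, 18.8 and 19.3 CPM and KLF5 from 146, 140.1 and 155 to 71.3, 63.5 and 63.0 CPM. The pioneer factors FOXA1 and FOXA2 moved apart, FOXA1 from 18.3, 19.2 and 18.9 down to 7.93, 6.74 and 5.84 CPM and FOXA2 from 47.1, 54.2 and 50.3 up to 76.8, 73.1 and 68.8 CPM. The BMP targets ID1 and ID3, inhibitors of helix-loop-helix factors, fell with log2 fold changes of -0.98 and -0.99, whereas ID2 rose slightly (0.18). HOX and partner genes rose in 5 and fell in 9 of 25 cases, among the risen HOXB9 from 2.55, 2.97 and 3.30 up to 7.97, 6.58 and 8.33 CPM. Chromatin enzymes of histone and DNA methylation rose in 18 and fell in 15 of 52 cases (34.6% and 28.8%, against 26.1% and 24.9%). The H3K4 demethylase KDM5B had the largest fall among them, from 377, 386 and 387 to 212, 201 and 210.4 CPM. The chromatin proteins NUCKS1 and HMGB3 were among the abundant rises, NUCKS1 from 1015.5, 1025.8 and 1013.6 to 1680.8, 1670.3 and 1622.4 CPM.

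Imprinted and long noncoding RNAs were led by H19, an imprinted noncoding RNA of the fetal liver and lung, which fell from 31.8, 32.3 and 28.8 to 4.26, 4.52 and 4.01 CPM (log2 fold change -2.86 ± 0.105, edgeR adjusted p = 8.00e-25). Its neighbour IGF2, expressed from the opposite parental allele, went from 25 to 90 reads (ratio 3.37, 95% counting interval 2.14 to 5.47). Of 17 imprinted genes 10 rose and 4 fell (58.8% and 23.5%, against 26.1% and 24.9% of all genes tested). Of 32 named long noncoding RNAs 13 rose and 4 fell (40.6% and 12.5%). The small nucleolar RNA hosts SNHG7 (0.61) and SNHG14 (0.64) rose and SNHG16 fell (-0.46). SNHG14 overlaps other genes of its imprinted region, and whether the counting used strand is not given in the sources used here, so its value is uncertain.

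Genes of splicing and ribosome biogenesis were more often higher, with no member changed by 2-fold. Of 46 tested hnRNP and SR splicing proteins 34 rose (73.9%, against 26.1% of all genes tested) and 3 fell (6.52%, against 24.9%). Their median was 0.16, from -0.34 to 0.86. Among the risen were HNRNPUL1, from 403, 403 and 415 to 584, 575 and 602 CPM, and CELF1, from 180.5, 181 and 183 to 262, 259 and 254 CPM. Of 47 genes of ribosome biogenesis 33 rose (70.2%, against 26.1% of all genes tested) and 1 fell (2.13%, against 24.9%). Their median was 0.16, from -0.14 to 0.57. Risen members included the RNA polymerase I factor UBTF, from 151, 158 and 152 to 224, 229 and 230 CPM, and fibrillarin FBL, from 209.7, 218 and 218 to 277, 273 and 276 CPM. RIOK1, a kinase of the small subunit that also brings substrates to PRMT5, rose from 36.9, 37.1 and 35.9 to 48.7, 50.9 and 48.4 CPM. These named genes were picked among called genes whose groups did not overlap, so the gap between their groups is part of that choice.

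Nuclear genes of the respiratory chain went the other way. Of 59 tested, 25 fell (42.4%, against 24.9% of all genes tested) and 2 rose (3.39%, against 26.1%), with a median of -0.06. COX7A2 of complex IV (-0.33) and SDHC of complex II (-0.29) were among the larger falls. ATP5MC1, a gene for the c subunit of ATP synthase, stood apart and rose from 29.4, 26.6 and 31.0 to 107, 107 and 114 CPM (log2 fold change 1.91 ± 0.0504, edgeR adjusted p = 1.09e-29). Its relative ATP5MC3, which encodes the same mature subunit, fell slightly (-0.10). The tRNA synthetase genes rose in 19 and fell in 7 of 39 cases (48.7% and 17.9%). The proteasome genes rose in 8 of 30 (26.7%, against 26.1% of all genes tested) and fell in 5 (16.7%, against 24.9%). The number of respiratory chain genes that rose was 1 without PRMT5 knockdown replicate 1, control replicate 1 or control replicate 2. The number of proteasome genes that rose was 4 without control replicate 1, and of the synthetases that fell it was 4 without PRMT5 knockdown replicate 2.

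**Figure D4:**
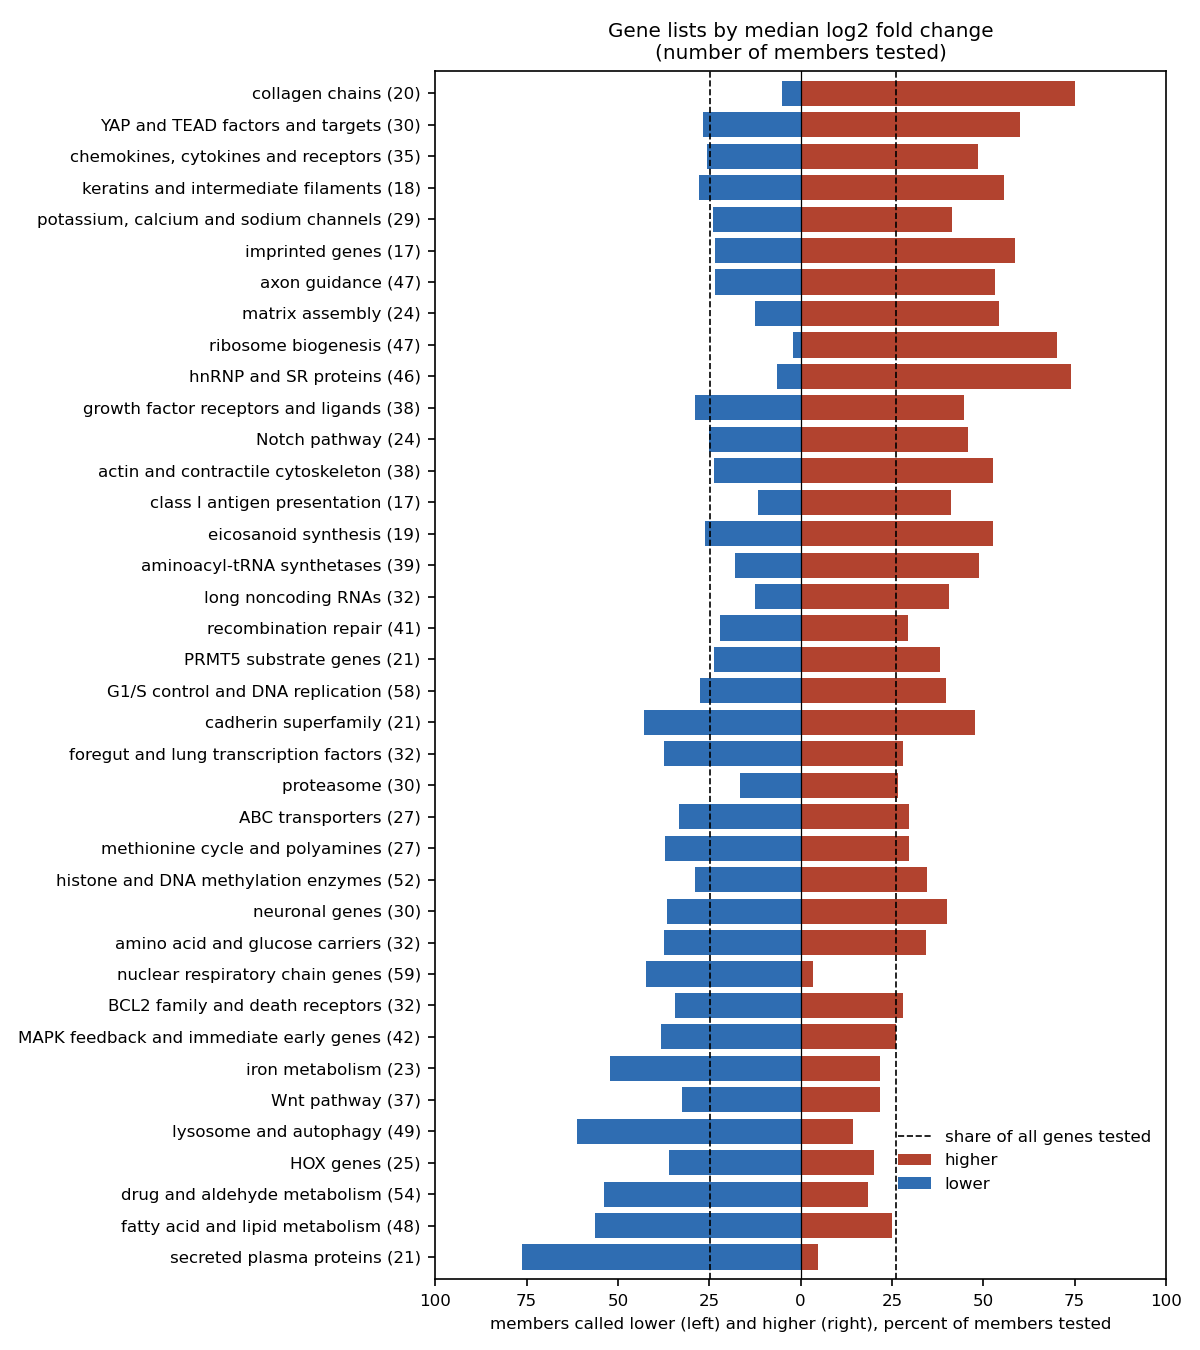
Share of the tested members of 38 gene lists that were called higher (red, to the right) or lower (blue, to the left) after PRMT5 knockdown, in percent, ordered by the median log2 fold change of the list, with the number of members tested in brackets. Dashed lines mark the shares of all genes tested, 26.1% higher and 24.9% lower. Collagen chains stand at the top with 75.0% higher, and secreted plasma proteins at the bottom with 76.2% lower.

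Several of the largest changes differed in size from those in the MEP50 knockdown. Between the PRMT5 and MEP50 knockdowns, tested directly in the same fit, 2796 genes were higher in the PRMT5 knockdown (19.2%) and 2991 lower (20.5%). Changes of both knockdowns were taken against the same control libraries, so their likeness is not given as a result. Of the 47 ribosome biogenesis genes 39 were higher in the PRMT5 than in the MEP50 knockdown and 0 were lower. Drug and aldehyde metabolism genes were higher in 4 and lower in 35 of 54 cases, and respiratory chain genes higher in 1 and lower in 25 of 59.

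Some genes moved in the PRMT5 knockdown and hardly or oppositely in the MEP50 knockdown. CCL2 was at 1.06, 1.26 and 0.528 CPM in the MEP50 knockdown libraries, at the control's level, and 2.72 ± 0.229 log2 units above that in the PRMT5 knockdown (edgeR adjusted p = 8.34e-13). ANKRD1 was at 45.1, 37.2 and 36.3 CPM there, below every control library, and the difference between knockdowns was 1.78 ± 0.0544 (edgeR adjusted p = 3.66e-23). CCN2 was at 55.2, 49.9 and 48.8 CPM (difference 1.08, edgeR adjusted p = 1.10e-20). In these genes the PRMT5 knockdown libraries stood above both other groups.

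CDH17 was at 66.7, 68.5 and 72.1 CPM in the MEP50 knockdown, well above the control, where the PRMT5 knockdown was below it (difference -2.48 ± 0.0675, edgeR adjusted p = 3.03e-28). LUM was at 7.73, 7.90 and 8.07 CPM (difference -3.67 ± 0.209, edgeR adjusted p = 8.25e-18), and ADI1 at 68.0, 66.0 and 65.4 CPM (difference -1.07). Each of these 3 genes passed the test in opposite directions in the PRMT5 and MEP50 knockdowns. CDKN1B was at 79.4, 81.1 and 83.2 CPM (difference -1.09 ± 0.0484, edgeR adjusted p = 4.13e-21), between the control and the PRMT5 knockdown libraries. NR4A1 was at 47.1, 45.3 and 44.7 CPM and PTGS2 at 44.8, 57.2 and 52.3 CPM, with lower levels in the PRMT5 knockdown for both (differences -1.20 and -1.99, edgeR adjusted p = 2.56e-20 and 1.17e-11). H19 went furthest in the MEP50 knockdown, at 0.387, 0.748 and 0.705 CPM (difference 2.76, edgeR adjusted p = 1.25e-14). NTS had log2 fold changes of -4.58 in the PRMT5 and -4.62 in the MEP50 knockdown, and their difference did not pass (edgeR adjusted p = 0.794).

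**Figure D5:**
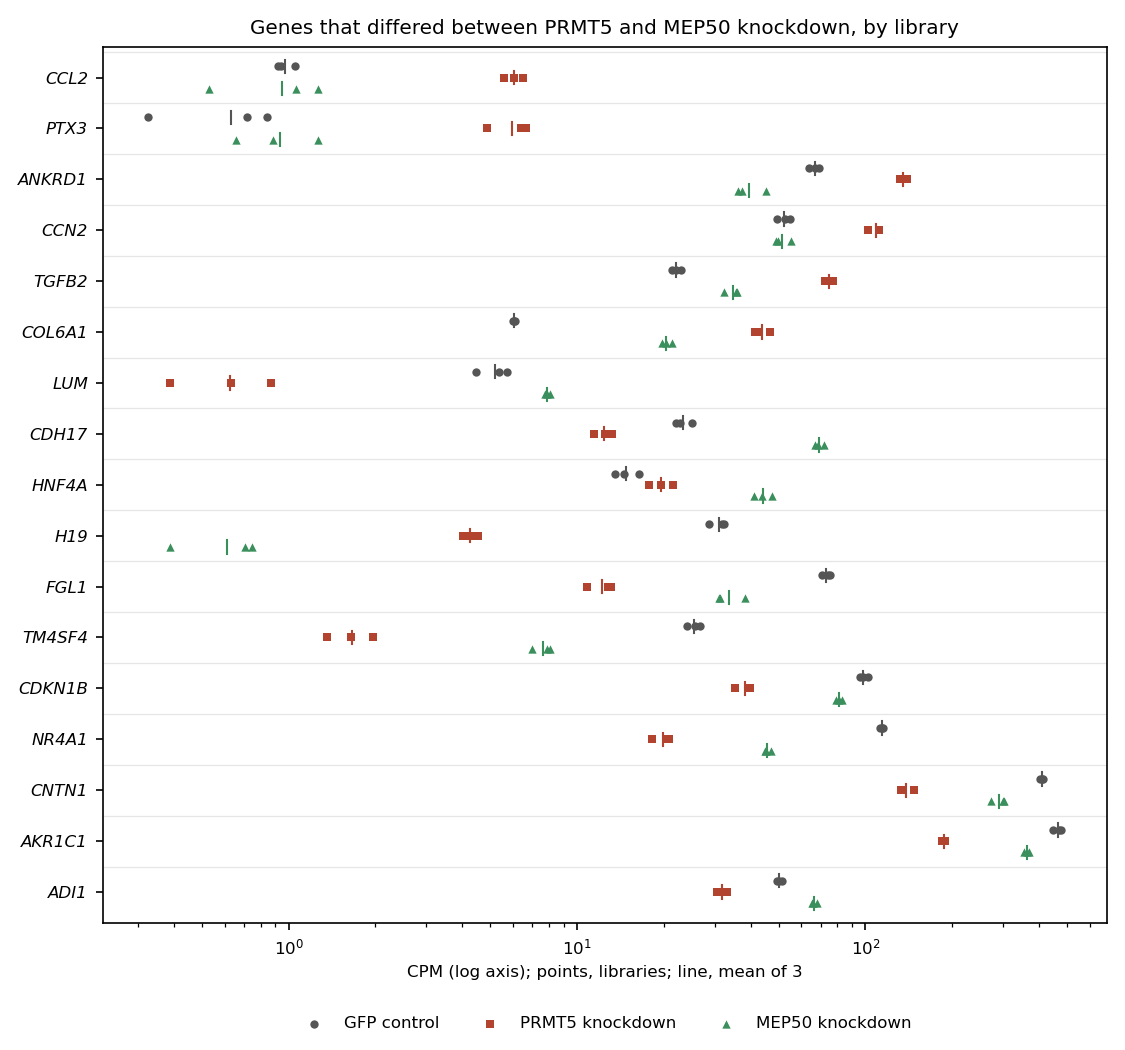
CPM (horizontal log axis) of 17 genes in each library of the GFP control (grey circles), the PRMT5 knockdown (red squares) and the MEP50 knockdown (green triangles), with a line at the mean of 3. CCL2, PTX3, ANKRD1, CCN2 and TGFB2 are highest in the PRMT5 knockdown, LUM, CDH17 and ADI1 lie on opposite sides of the control, and H19 is lowest in the MEP50 knockdown.

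Promoters of genes with large changes differed in letter content from those of all genes tested, given here as a description. Of the 14582 genes tested 10403 had a promoter in the RefSeq table of 300-base windows (250 before and 50 after the start), among them 343 of the genes at least 2-fold higher and 353 of those at least 2-fold lower. The median number of CpG was 25 over genes tested, 21 in the higher genes and 15 in the lower ones. The ETS motif CCGGAAG was present in 16.5% of the promoters of genes tested, 4.06% of those of higher genes and 5.81% of those of lower genes. The GC box GGGCGG was present in 65.9%, 56.3% and 52.3%, and the TATA box TATAAA in 6.37%, 8.49% and 11.6%, in the same order. For the HNF1 core GTTAAT the shares were 4.39%, 4.61% and 8.02%, for the AP-1 motif TGAGTCA 3.62%, 5.90% and 5.61%, for the cAMP response element core TGACG 31.5%, 22.1% and 25.5%, and for CCAAT 34.7%, 28.8% and 37.3%. Over all 35116 promoters of the table, in any gene, the shares were 10.3% (CCGGAAG), 45.0% (GGGCGG), 11.5% (TATAAA), 6.88% (GTTAAT), 4.95% (TGAGTCA), 24.6% (TGACG) and 34.6% (CCAAT). Both strands were searched, a promoter counted once per motif, and a gene could have several promoters. Genes with large changes were also the less abundant ones, and the part of abundance in these shares was not tested.

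The authors' deposited table of this comparison listed 6807 genes, 3415 of them higher and 3392 lower. Of these, 6718 were also called here, which is 98.7% of that table and 90.4% of the calls made here, and 0 had the opposite sign. The 715 genes called only here had a median absolute log2 fold change of 0.22.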

How the data were processed

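RNA sequencing of the 3 PRMT5 knockdown and 3 GFP control libraries was compared, with the 3 MEP50 knockdown libraries in the same fit. Reads per Ensembl gene were deposited by the authors as whole-number counts (51796 genes, 26748 with a read), made with Trim Galore, STAR and HTSeq on hg19, per the submitters' processing notes. Tool versions, the strand setting and the hairpins are not given in the sources used here. The authors' own comparison held log2 fold changes from DESeq2 and edgeR with an adjusted p-value and an FDR, per the file headers. HTSeq's summary lines, with 14.2% (knockdown) and 12.1% (control) of counted reads outside genes, entered neither library sizes nor tests. The counting interval covers counting error only, at 95%.

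Counts were fitted with edgeR 4.0.16 in R 4.3.3 (TMM, filterByExpr, robust quasi-likelihood fit of 9 libraries by group, Benjamini-Hochberg adjustment at 0.05). The fit was tested on simulated data. The SE was derived from the F statistic of the test. Other settings tried were scaling by RLE, by upper quartile and by library totals, no low-count filter, 1 CPM in 3 libraries, a replicate block, 6 libraries, each library left out, removal of small RNAs and pseudogenes, and DESeq2 1.42.0. A gene-name table gave symbols for 36583 identifiers (70.6%), and GENCODE 29 gave gene types and lengths for 45025. Promoter sequences are from RefSeq on GRCh38.p14.

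Named genes were PRMT5, WDR77, CDKN2A and MTAP, the 15 largest rises and 15 largest falls of called genes averaging 5 CPM or more whose groups did not overlap, the 8 largest each way in CPM among called genes changed at least 1.5-fold, and up to 4 per list, minus genes that are not reported here. Members and the 38 lists (1557 names) were chosen with earlier results of these data known, and genes named beyond the rule were chosen after their values were seen.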

Additional observations from a re-analysis of the deposited data

Results flagged for a closer look

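Reads outside annotated genes form a part of the libraries that the gene comparisons do not use. They made up 14.2 ± 0.453% of counted reads in the PRMT5 knockdown against 12.1 ± 0.296% in the control (SD, n = 3 each), with the 3 knockdown libraries all above the 3 control libraries. The two-sided exact permutation test gave p = 0.1, the smallest that the design allows. In the authors' deposited table the line for these reads has an edgeR log2 fold change of 0.26.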

How the results depend on the processing

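Every count of calls and the fall of PRMT5 itself kept its direction and side of the threshold, or stayed within 1.5 times, under all alternatives run. With each library left out in turn, 3354 to 3418 genes were higher and 3323 to 3566 lower, and 502 to 529 and 545 to 588 by at least 2-fold. Over the other alternatives the counts ran from 3501 to 3905 and from 3501 to 3796, and from 380 to 577 and 398 to 675 by at least 2-fold. The share of calls that were higher ran from 48.6% to 52.7%, and no scaling moved the median of all genes by more than 0.01. Each scaling sets levels relative to the reads of a library, so neither value can show a shift of all genes together. Of 180 called genes that the rule named, 174 were called under every alternative run for them. WDR77, KLF4, PCDH1, KRT15, PDGFRA and SNRPN lost their call in some. Another 34 genes, chosen after their values were seen, were checked and 0 lost a call, though MYC among them was not called in the main fit. The text names further genes, which were not checked in this way. The numbers of the replicates did not pair the libraries (correlations of deviations 0.00579, -0.0361 and 0.0279). With the replicate block 3804 genes were higher and 3619 lower, and 512 and 539 by at least 2-fold. Depth limits changes of genes with few reads, such as SPARC with 3 control reads, and the least abundant class held 12.7% and 13.1% of its genes as calls. Small counts of list members moved more: class I antigen presentation had 4 members higher without PRMT5 knockdown replicate 1, and ribosome biogenesis had 0 lower with library totals, with the block or without replicate 1 of either group.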
